A study of Rattus norvegicus with 20 samples.

Results

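In rat epithelial cells recovered from skin transplants, 22 of the 32494 genes in the files formed a set of whisker genes gained after transplantation. A member had at least 1 unit more in whisker cells than in bladder, trachea, vagina and thymus cells before transplantation. The unit was L, the mean over the 2 samples of a group of log2(CPM + 1), in which CPM is the read count of a gene scaled to the total of its sample on genes. After recovery, the same 1st round whisker level was less than 1 unit above at least 3 of the 4 tissues. A tissue still 1 or more below is said here to lag. Members of 8 gene families (symbols starting with Slc, Krt, Col, Itg, Cdh, Hox, Fox or Wnt) were to be left out, which removed 0 genes. The 12 members without a known symbol could not be checked for these families. The rule used the measured values of 18 of the 20 samples, so the contrasts inside it are a description. The recovered whisker cells did not enter it.

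All cells came from Sprague-Dawley rats that express the Enhanced Green Fluorescent Protein (EGFP) constitutively from an actin-promoter transgene (act-EGFP, line CZ-004). The donors' postnatal ages were PN57 for whisker, PN137 for thymus, PN200 for vagina and trachea, and PN201 for the dome of the bladder. The cells were grown on irradiated mouse 3T3-J2 feeder cells, sorted for EGFP and sequenced before transplantation (1st round) or after injection into newborn mouse skin, grafting onto nude mice, recovery and a 2nd culture (recovered), with 2 samples in each of 10 groups. Whisker cells were clone 7 in the 1st round and subclone 14 after recovery, bladder, trachea and vagina cells were bulk cultures, and thymic cells were a frozen stock labelled both bulk and clone 9 in the 1st round and bulk 907 after recovery. Thus the whisker reference was a single clone, donor age differed between tissues other than vagina and trachea, and the 2 samples of a group were not stated to be separate animals or grafts, so that p values measure a spread that may be technical.

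The whisker follicle is a large sensory hair follicle whose bulge holds clonogenic keratinocytes, and its cells build both hair and surface epidermis. Keratinocytes of the skin make a water barrier from cross-linked proteins and from lipids that they secrete, and they are patterned by short-range ligands, activin-type signals and cell polarity proteins. Bladder, trachea, vagina and thymus have epithelia of other kinds, and the study asked whether their cultured cells acquire properties of hair follicle cells in a skin environment.

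Of the 22 members, 10 could be named through the symbols given by the study and 12 are known here only by their Ensembl identifier. One of the symbol lists was at hand only in part, and all 10 symbols start with A to E. The named members are thus a cut by alphabet, and what they share need not hold for the 22. The named members were 2 lipid-barrier genes, Abca12 (ENSRNOG00000015248), a transporter that loads lipids into the secretory granules of keratinocytes, and Aloxe3 (ENSRNOG00000007454), an epidermal lipoxygenase. Others were the ephrin ligand Efna3 (ENSRNOG00000057322), the activin receptor Acvr1b (ENSRNOG00000006934), the zinc finger transcription factor Casz1 (ENSRNOG00000013474) and the polarity protein Crb1 (ENSRNOG00000010903). The remaining ones were the inflammasome protease Casp1 (ENSRNOG00000007372), Bnipl (ENSRNOG00000021116), a relative of the BNIP2 protein, the anoctamin Ano9 (ENSRNOG00000015830) and the cell surface oxidase Enox1 (ENSRNOG00000047817).

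The promoters of the 4 named members with the largest mean rise are shown, since these lead the named members by size of gain, although Casp1 did not gain in trachea. They run from 250 bases before to 50 bases after the start site, 5′ to 3′ on the strand of the gene, and were taken from RefSeq on assembly GRCr8, in which 8 of the 10 named members had an entry (not Ano9 and Crb1). Capitals mark matches to the searched motifs. The Abca12 promoter lies at chr9:80445291-80445590 on the minus strand, that of Casp1 at chr8:10872580-10872879 on the plus strand, that of Bnipl at chr2:185517533-185517832 on the minus strand and that of Casz1 at chr5:164526862-164527161 on the plus strand.
Abca12: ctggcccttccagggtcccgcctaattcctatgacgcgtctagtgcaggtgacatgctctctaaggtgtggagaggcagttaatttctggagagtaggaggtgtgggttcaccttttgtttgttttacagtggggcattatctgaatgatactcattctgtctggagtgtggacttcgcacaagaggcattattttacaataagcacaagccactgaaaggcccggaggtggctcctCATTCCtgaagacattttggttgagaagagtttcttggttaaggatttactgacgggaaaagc
Casp1: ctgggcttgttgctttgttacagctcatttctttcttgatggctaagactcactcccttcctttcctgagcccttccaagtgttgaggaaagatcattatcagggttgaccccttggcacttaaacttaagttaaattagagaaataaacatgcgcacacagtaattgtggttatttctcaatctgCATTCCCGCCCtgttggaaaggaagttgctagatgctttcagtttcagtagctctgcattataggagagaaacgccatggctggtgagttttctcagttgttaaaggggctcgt
Bnipl: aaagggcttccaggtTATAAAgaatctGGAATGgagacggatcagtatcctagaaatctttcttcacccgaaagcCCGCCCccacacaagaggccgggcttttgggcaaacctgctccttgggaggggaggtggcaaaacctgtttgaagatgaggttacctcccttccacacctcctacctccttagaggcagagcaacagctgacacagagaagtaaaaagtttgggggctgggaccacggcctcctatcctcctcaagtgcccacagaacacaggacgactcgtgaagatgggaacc
Casz1: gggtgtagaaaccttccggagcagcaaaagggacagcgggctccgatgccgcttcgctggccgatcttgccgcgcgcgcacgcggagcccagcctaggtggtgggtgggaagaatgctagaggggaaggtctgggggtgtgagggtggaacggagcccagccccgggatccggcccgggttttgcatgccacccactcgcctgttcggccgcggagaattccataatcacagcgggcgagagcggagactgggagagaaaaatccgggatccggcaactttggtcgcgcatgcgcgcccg
The motifs searched on both strands were TGAGTCA (AP-1), GGGCGG (GC box), CCAAT (the motif of NF-Y), TATAAA (the TATA box), CTTTGAT (TCF/LEF), GGAATG (TEAD) and CACGTG (E-box). GGAATG was present in 3 of the 8 promoters (Abca12, Casp1 and Bnipl) and in 14.2% of all 33469 promoters of the same length. In Casp1 it overlapped a GC box match by 1 base. GC boxes were found in 6 of 8 (33.1% of all promoters), TATAAA only in Bnipl (14.2%), CCAAT only in Aloxe3 (37.5%), CACGTG only in Acvr1b (6.42%), and TGAGTCA and CTTTGAT in 0 of 8 (4.63% and 3.63%). The Casz1 window held none of the 7. The median GC content was 61.3% in the 8 promoters and 51.7% in all. A match is a description of letters and says nothing about binding.

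Each sample had 20723083 to 29824855 reads on genes, so that 3 counts correspond to 0.101 to 0.145 CPM. All 22 members passed the filter of at least 1 CPM in at least 1 sample, as did 13302 genes. In 1st round whisker cells the members had between 2.35 and 159 CPM, with a median of 35.6, and 16 had at least 10 CPM in both samples. They belonged to 311 genes that were at least 1 unit higher in 1st round whisker cells than in the 4 tissues. Of these 311, 132 were within 1 unit of whisker cells in 0 recovered tissues, 89 in 1, 68 in 2, 18 in 3 and 4 in all 4. The set is thus the part of the whisker-high genes that came closest after transplantation, and 289 of 311 did not reach it. Its members had also started closer. Their median 1st round gap to whisker cells was 1.27 for vagina and 1.77 for trachea, against 1.86 and 2.54 over all 311. For thymus it was 1.87 against 2.16, and for bladder 1.96 against 2.46. How far membership follows from a small starting gap was not tested. At the thresholds, the smallest 1st round gap was 1.0006 for the member closest inside, followed by 1.0024 for Crb1, and 0.9974 for the closest gene outside. The third smallest recovered gap was 0.9436 for the member closest inside and 1.0126 for the closest outside.

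The set did not respond alike in the 4 tissues. Trachea lagged for 12 members, thymus for 4, bladder for 2 and vagina for 0, and 4 members had no lagging tissue. Among the named members, trachea lagged for Casp1, Bnipl, Casz1, Enox1, Ano9 and Acvr1b, and bladder for Aloxe3, whereas Abca12, Efna3 and Crb1 lagged nowhere. Trachea also came last over all 311 genes, of which 6.11% were within 1 unit of 1st round whisker cells in recovered trachea, 27.7% in bladder, 29.9% in vagina and 31.2% in thymus. The median rise of L over the members was 1.38 in bladder (range 0.22 to 3.92), 0.96 in thymus (-0.08 to 4.70), 0.68 in trachea (-0.39 to 1.68) and 0.67 in vagina (0.30 to 3.04), against 0.78, 0.64, 0.13 and 0.48 over the 311 genes. All these values lie inside the rule and carry no test.

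**Figure D1:**
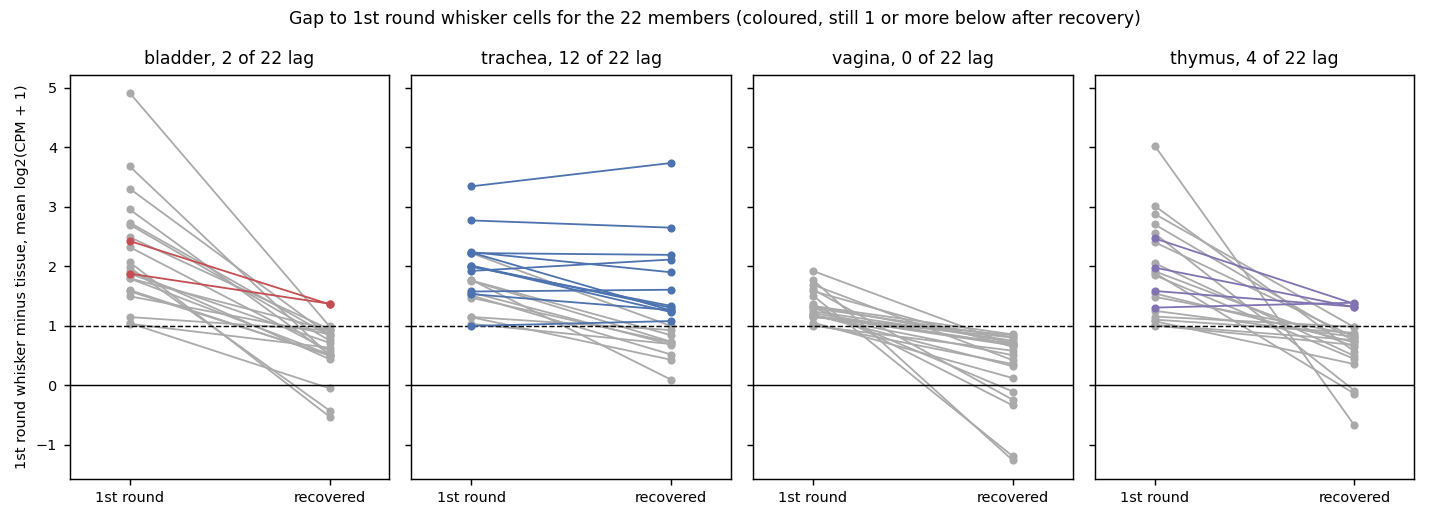
Gap of each of the 22 members between 1st round whisker cells and a tissue, in mean log2(CPM + 1), in the 1st round and after recovery; one line per member, coloured where the recovered tissue was still 1 or more below (dashed line). The gap closed below 1 for all 22 members in vagina, but stayed at 1 or more for 12 in trachea.

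By sample, both recovered samples were above both 1st round samples for 22 members in bladder, 22 in vagina, 18 in thymus and 14 in trachea. Both recovered samples remained below both 1st round whisker samples for 21 members in trachea, 19 in bladder, 19 in thymus and 15 in vagina. For most members the recovered levels thus stayed short of 1st round whisker cells, which the rule allows by just under 1 unit. The rule used both arms of these counts, and the share over all genes was not counted, so they are a description only. When the allowed shortfall was 0.5 in place of 1, 0 genes met the rule. With CPM scaled by TMM factors 36 genes met it, all 22 members among them, and with recovered whisker cells as the second reference 106 did, 19 members among them. Limma calls in contrasts that the rule used follow from the choice of members, and nothing is read from them. Between recovered and 1st round cells, 19 members were called higher in bladder (10.1% of all genes), 7 in trachea (4.39%), 11 in vagina (4.25%) and 14 in thymus (8.49%). Against 1st round whisker cells, 16 members were called lower in recovered trachea (10.5%), 9 in thymus (6.83%), 3 in bladder (7.49%) and 1 in vagina (8.67%), and 2 were called higher in vagina (7.34%).

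The lipid transporter Abca12 had the largest mean rise of L over the 4 tissues, 2.56. In whisker cells it had 49.3 and 41.3 CPM in the 1st round and 33.4 and 38.6 after recovery. In bladder it went from 0.781 and 0.308 CPM to 24.5 and 20.02, and in vagina from 9.64 and 16.0 to 112 and 107. Recovered vaginal cells were thus above every whisker sample, and recovered bladder cells below every one. Trachea went from 12.2 and 12.8 CPM to 43.3 and 41.0, and thymus from 6.22 and 9.45 to 24.9 and 25.6. Recovered tracheal samples were above both recovered whisker samples, and thymic samples were below both. For the other lipid-barrier member, Aloxe3, whisker cells had 30.7 and 33.4 CPM before and 22.8 and 31.5 after. It reached 13.7 and 10.2 CPM in recovered bladder from 4.46 and 5.90, and 20.2 and 18.6 in recovered trachea from 14.8 and 15.5. Vagina went from 13.05 and 14.3 to 20.5 and 19.0, and thymus from 12.5 and 13.2 to 17.2 and 18.3. The 8 recovered values of Aloxe3 in the 4 tissues were all below the 4 whisker values.

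Signalling and patterning members filled the gap to different degrees. Efna3, whose product binds Eph receptors on neighbouring cells, had 59.0 and 53.4 CPM in 1st round and 42.5 and 42.7 in recovered whisker cells. It went from 5.10 and 7.88 CPM to 41.9 and 36.1 in bladder, from 16.0 and 15.7 to 34.4 and 32.3 in trachea, and from 21.1 and 22.9 to 58.7 and 62.1 in vagina. In thymus it had 28.3 and 21.4 before and 28.7 and 27.1 after, and the samples of the 2 rounds overlapped. The activin receptor Acvr1b stood at 124 and 130 CPM in 1st round and 86.4 and 94.7 in recovered whisker cells. It went from 41.8 and 40.4 to 90.7 and 88.0 in bladder, from 57.2 and 61.9 to 98.5 and 99.0 in thymus, and from 57.4 and 54.1 to 76.6 and 79.2 in vagina. In trachea both recovered samples of Acvr1b, 27.3 and 29.8, were below the 1st round samples of 32.0 and 33.4.

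The transcription factor Casz1 had 75.6 and 73.4 CPM in 1st round and 47.2 and 49.5 in recovered whisker cells. It went from 7.71 and 8.96 to 49.5 and 50.2 in thymus, from 21.1 and 16.8 to 59.1 and 50.5 in bladder, and from 18.7 and 19.1 to 45.1 and 47.5 in vagina. Trachea gained the least, from 14.2 and 15.8 to 20.6 and 17.9, and was the sole tissue with both recovered samples below both recovered whisker samples. Crb1, of the complex that marks the apical side of epithelial cells, had 15.4 and 15.04 CPM in 1st round and 9.20 and 9.45 in recovered whisker cells. It reached 9.84 and 9.85 in bladder from 2.23 and 2.25, 9.17 and 8.5 in trachea from 5.49 and 4.27, and 9.52 and 10.2 in vagina from 6.43 and 7.85. Recovered thymus, at 7.53 and 6.99 from 1.09 and 1.32, was the lowest of the 4 tissues for Crb1.

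Casp1, which processes interleukin-1 beta, ran from near 0 in one recovered tissue to above whisker cells in others. Whisker cells had 17.9 and 15.4 CPM before and 11.6 and 11.1 after. Thymic cells went from 0.162 and 0 CPM (4 and 0 reads) to 26.8 and 27.3, and bladder cells from 3.61 and 3.30 to 23.1 and 22.1. Both recovered tissues were above all 4 whisker samples. Vagina went from 6.31 and 5.63 to 9.28 and 10.1. In trachea, by contrast, it stayed below 1 CPM, at 0.738 and 0.725 before and 0.338 and 0.301 after recovery. Enox1 was also near 0 in trachea, with 0 and 3 reads before and 5 and 2 reads after, levels near the 3 counts taken as the smallest shown, and so was a member without a symbol, with 5 and 1 reads before and 1 and 4 after. In bladder it went from 0.707 and 0.749 CPM to 9.44 and 9.45, above the 7.53 and 6.37 of recovered whisker cells, and in thymus it had 2.02 and 2.77 before and 2.54 and 3.37 after. Vagina had 2.26 and 2.13 before and 4.98 and 4.63 after, and 1st round whisker cells had 6.79 and 5.77.

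Bnipl and Ano9 ended at levels in recovered bladder, vagina and thymus close to those of recovered whisker cells. Bnipl had 38.9 and 38.6 CPM in 1st round and 20.9 and 24.2 in recovered whisker cells. It reached 23.01 and 22.02 in bladder from 4.35 and 5.95, 24.9 and 23.7 in vagina from 10.98 and 13.6, and 23.3 and 22.2 in thymus from 5.69 and 4.53. The trachea values, 15.2 and 15.9 from 7.29 and 7.59, were below both recovered whisker samples. Ano9 had 48.6 and 45.3 CPM in 1st round and 22.3 and 25.9 in recovered whisker cells. It had 26.7 and 25.03 in recovered bladder from 6.29 and 6.08, 25.2 and 27.6 in vagina from 20.8 and 20.4, and 28.2 and 26.2 in thymus from 23.5 and 21.8. Its trachea samples, 15.5 and 20.8 from 10.8 and 11.3, were again below both.

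**Figure D2:**
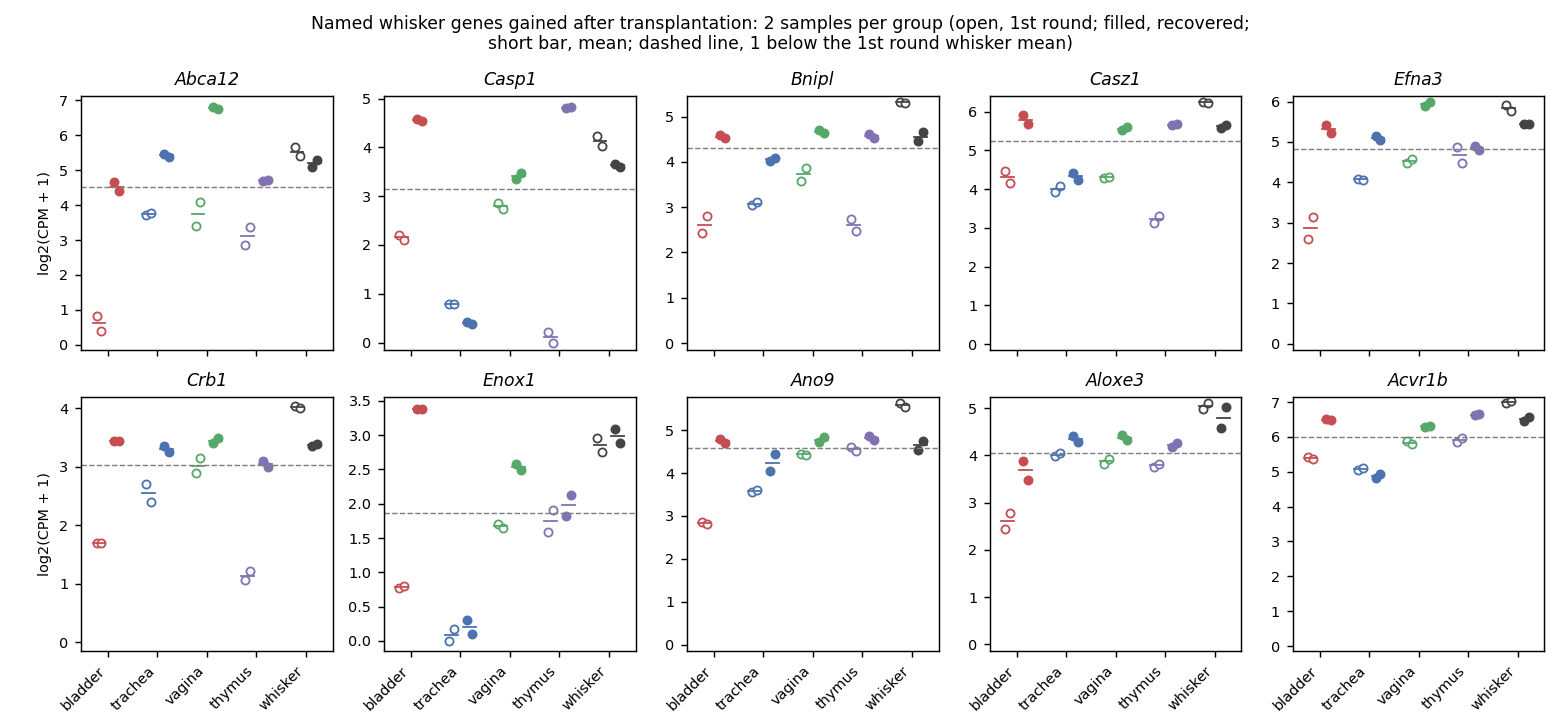
log2(CPM + 1) of the 10 named members in each of the 20 samples; open points, 1st round, filled points, recovered, short bars, mean of 2 samples, dashed line, 1 below the mean of 1st round whisker cells. Recovered vaginal cells lie above the dashed line for all 10 genes, and recovered tracheal cells below it for Casp1, Bnipl, Casz1, Enox1, Ano9 and Acvr1b.

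The 12 members without a symbol had 2.35 to 159 CPM in 1st round whisker cells, 5 of them under 10 CPM, and mean rises of 0.28 to 1.99. Trachea lagged for 6 of them, thymus for 4 and bladder for 1. The one with the largest mean rise, ENSRNOG00000021046, had 47.1 and 42.3 CPM in 1st round and 58.5 and 56.8 in recovered whisker cells. It went from 11.98 and 18.8 to 104 and 102 in vagina and from 1.64 and 3.79 to 32.3 and 30.0 in bladder, whereas thymus reached 17.1 and 16.2. As for Abca12, recovered vaginal cells were above every whisker sample.

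The recovered whisker cells allowed comparisons in which one arm was not used to choose the members. Counts were fitted in limma (voom) with one mean for each of the 10 groups, and a gene was called at an adjusted p under 0.05 (Benjamini-Hochberg over 13302 genes) and at least a 2-fold difference. The 1st round whisker arm had been chosen as high, and the 5 comparisons with recovered whisker cells share their samples. Between recovered and 1st round whisker cells, 17 of the 22 members had a lower L, with a median difference of -0.46 (range -2.73 to 0.47). Among the other 289 whisker-high genes, 254 had a lower L, and the median was -0.63. Limma called 3 members lower (3.83% of all genes) and 0 higher (2.15% of all genes), and edgeR and DESeq2 also called 3 lower and 0 higher. An unadjusted limma p under 0.05 was reached by 15 of 22 members and by 4872 of all 13302 genes. Of the other 289 genes, 100 were called lower and 1 higher. No named member was among the 3. ENSRNOG00000011071 had 34.3 and 30.8 CPM in 1st round and 3.96 and 4.11 in recovered whisker cells (log2 fold change -2.98, SE 0.15, limma adjusted p 1.19e-09). ENSRNOG00000028426 had 5.38 and 6.37 CPM before and 1.497 and 1.58 after (-1.88, SE 0.25, limma adjusted p 3.45e-05). In both, the 2 rounds did not overlap. Among the named members the largest change was that of Ano9, -0.93 (SE 0.11, limma adjusted p 1.03e-05), which was under 2-fold and became -1.04, past the threshold, without the 2nd sample of recovered whisker cells.

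Against recovered whisker cells the members were centred near 0 in bladder and vagina, and below 0 in thymus and trachea. The median log2 fold change over the 22 members was -0.002 in bladder, -0.08 in vagina, -0.31 in thymus and -0.95 in trachea, and over the other 289 whisker-high genes -1.21, -1.14, -1.25 and -2.42, against medians over all genes within 0.02 of 0. The rule chose members with small recovered gaps to 1st round whisker cells, so smaller values than in the other 289 are not a finding. It also used the low recovered values of lagging tissues. Without the members lagging in the tissue compared, 2 of 20 were called lower in bladder, 2 of 10 in trachea and 2 of 18 in thymus. Over all 22 members, 3 were called higher in bladder (13.5% of all genes) and 4 lower (6.59%). In vagina, 3 were higher (5.68%) and 0 lower (6.2%), with 0 lower by edgeR and DESeq2 too. There 14 of 22 members had an unadjusted limma p under 0.05 in either direction, and so did 6768 of all 13302 genes. In thymus, 2 were higher (10.4%) and 5 lower (6.21%). In trachea 0 were higher (9.83%), also by edgeR and DESeq2, and 9 lower (9.22%). There 19 members had an unadjusted limma p under 0.05, and so did 7978 of all 13302 genes. The count for bladder depended on single libraries: it was 1 lower without the 2nd recovered bladder sample and 2 without the 2nd recovered whisker sample.

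Among named members, Abca12 was higher in recovered vagina than in recovered whisker cells (log2 fold change 1.60, SE 0.15, limma adjusted p 3.62e-07). In recovered trachea its difference was 0.13, with a 95% interval of -0.21 to 0.46. Casp1 was higher in recovered thymus (1.15, SE 0.12, limma adjusted p 9.15e-07) and bladder (1.03, SE 0.12, limma adjusted p 3.34e-06), and lower in trachea (-5.17, SE 0.40, limma adjusted p 1.79e-08). Its bladder value was 0.99 and under the threshold without the 2nd recovered whisker sample. Aloxe3 was lower in bladder (-1.15, SE 0.15, limma adjusted p 9.22e-06), and fell short of 2-fold, at -0.93 and -0.92, without the 2nd recovered bladder or the 2nd recovered whisker sample. Enox1 was lower in trachea (-5.60, SE 0.54, limma adjusted p 2.61e-07), a fitted value that rests on 5 and 2 reads, and in thymus (-1.31, SE 0.22, limma adjusted p 0.000112). Acvr1b and Casz1 were lower in trachea, by -1.76 (SE 0.07, limma adjusted p 1.71e-11) and -1.44 (SE 0.11, limma adjusted p 1.97e-08). Trachea was the lagging tissue of Casp1, Enox1, Acvr1b and Casz1, and bladder that of Aloxe3. The rule used these low recovered values, so the lower calls there are a description and not independent support.

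For several members the interval around no difference was narrow. Acvr1b differed from recovered whisker cells by 0.03 in bladder (95% interval -0.11 to 0.17) and by 0.02 in thymus (-0.12 to 0.16). Casz1 differed by -0.06 in vagina (-0.27 to 0.15) and by -0.06 in thymus (-0.26 to 0.15). Bnipl differed by 0.04 in bladder (-0.19 to 0.28), 0.11 in vagina (-0.12 to 0.33) and -0.09 in thymus (-0.32 to 0.14). These intervals lie inside a 2-fold difference on either side, though they do not show that the levels were equal. None of these tissues lagged for the gene, so the rule had already held them less than 1 unit below 1st round whisker cells. How far the closeness follows from that choice was not tested. Ano9, Bnipl, Crb1 and Efna3 were not called in any of the 4 tissues, with log2 fold changes between -0.72 (Efna3 in thymus) and 0.50 (Efna3 in vagina). ENSRNOG00000011071, which had dropped in recovered whisker cells, was higher than these by 2.17 in bladder, 2.29 in vagina and 2.99 in thymus (limma adjusted p 7.40e-09, 9.37e-09 and 1.09e-10).

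**Figure D3:**
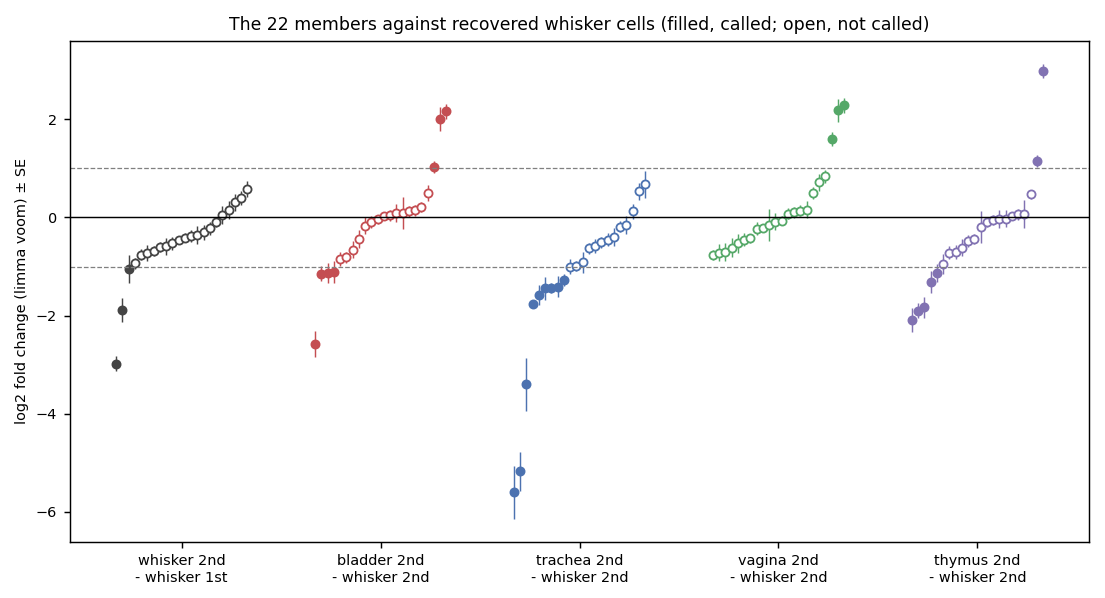
log2 fold change (limma voom, error bars 1 SE) of the 22 members between recovered and 1st round whisker cells (grey, left) and between each recovered tissue and recovered whisker cells; members are sorted by value within a comparison, filled points are called and dashed lines mark 2-fold. In trachea 9 members lie below the lower line and are filled, and in vagina 0 do.

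Among the recovered tissues themselves, both arms of each pair had been used to choose the members, so the counts are a description. A lag also fixes the direction of a difference, so members that lagged in neither tissue of a pair were counted apart. Over all 22 members, recovered trachea was lower than vagina for 10 and higher for 0 (6.29% and 7.37% of all genes), lower than thymus for 7 and higher for 0 (10.4% and 7.59%), and lower than bladder for 8 and higher for 0 (12.3% and 6%). For these pairs 20, 17 and 17 of 22 members had an unadjusted limma p under 0.05, and so did 6561, 7958 and 7959 of all 13302 genes. With edgeR and DESeq2, 0 members were higher in trachea too, which adds no independent support for members chosen with a lag allowed. Without the lagging members, recovered trachea was called lower for 3 of 10, 0 of 6 and 1 of 8. Recovered vagina was higher than thymus for 7 members and lower for 1 (7.5% and 11.7% of all genes), and 3 of 18 and 1 of 18 without the lagging members. Bladder was higher than vagina for 2 and lower for 4 (13.3% and 6.47%), which became 2 and 3 of 20. Bladder was higher than thymus for 3 and lower for 0 (9.65% and 6.8%), which became 1 and 0 of 16. Over all 22 members, 13 had an unadjusted limma p under 0.05, as did 7355 of all 13302 genes, and 0 were lower by edgeR and DESeq2. By group means, the highest recovered tissue was vagina for 11 members and trachea for 0, and the lowest was trachea for 13 and vagina for 0. In the 1st round vagina had also been the highest for 11, while bladder was the lowest for 10.

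Genes of the pathways to which members belong were counted from lists written with earlier results known. Only genes with a symbol from the study's lists of genes that differ from whisker cells could be found, so these counts are not independent evidence of a direction. Of 40 epidermal barrier genes, 14 had an identifier, among them Abca12 and Aloxe3. Of the 12 others, limma called 10 higher and 0 lower after transplantation in bladder, 6 and 0 in thymus, 6 and 1 in vagina and 5 and 0 in trachea, while 0 were higher and 3 lower (Dsc1, Sbsn and Dmkn) in whisker cells. Over all genes tested, 10.1%, 8.49%, 4.25%, 4.39% and 2.15% were called higher and 11%, 6.89%, 7.53%, 8.04% and 3.83% lower in the same order. The median log2 fold changes were 4.10, 1.2975, 1.10, 0.52 and -0.43 in the same order, and over all genes between -0.02 and 0.02. Dsg1 and Dsc1, desmosomal cadherins of the upper epidermis, and Sbsn, a protein secreted by differentiating keratinocytes, rose in all 4 tissues. Mean Sbsn levels went from 1.27 to 88.8 CPM in bladder, 1.13 to 3.70 in trachea, 12.9 to 66.96 in vagina and 6.89 to 16.3 in thymus, and from 529 to 163 in whisker cells. For Dsg1 they went from 27.6 to 91.7 CPM in vagina, against 47.4 and 30.4 in whisker cells, but only to 5.85 in bladder, 7.75 in trachea and 3.94 in thymus. Dsc2, a desmosomal cadherin of simpler epithelia as well, was the one that fell in vagina.

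**Figure D4:**
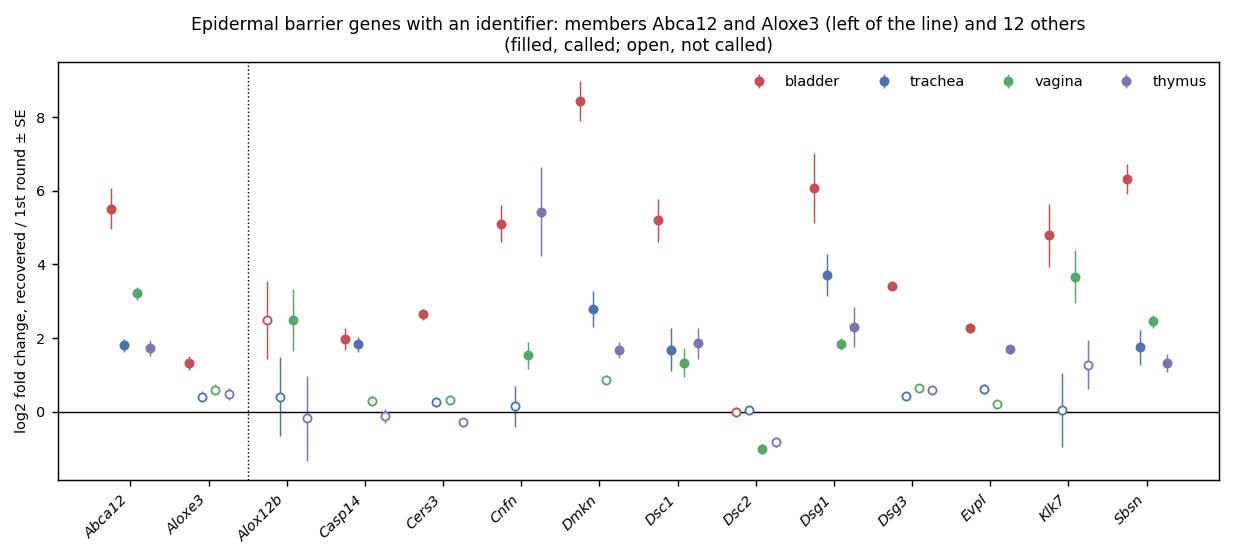
log2 fold change (limma voom, error bars 1 SE) between recovered and 1st round cells of each tissue for the 14 epidermal barrier genes with an identifier; filled points are called. The 2 members left of the dotted line were chosen on these values and are shown for comparison; among the 12 others, bladder has 10 called higher and trachea 5.

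The ephrin, hair follicle and BMP lists each held genes called in both directions across the groups. The calls on the Wnt list between the rounds were all lower after recovery, but 5 of 42 genes are too few to give a direction. Over all genes tested, 10.1% were called higher and 11% lower in bladder, 4.39% and 8.04% in trachea and 4.25% and 7.53% in vagina. For thymus the shares were 8.49% and 6.89%, and for whisker cells 2.15% and 3.83%. Among 13 ephrin and guidance genes besides Efna3, 2 were called higher and 1 lower in bladder, 1 and 1 in trachea, 1 and 1 in vagina, 0 and 2 in thymus and 0 and 2 in whisker cells, with Epha1, an Eph receptor, higher in bladder and trachea. Among 12 hair follicle stem cell and placode genes, none of them a member, 6 were higher and 1 lower in bladder, 2 and 2 in trachea, 3 and 2 in vagina, 5 and 1 in thymus and 0 and 3 in whisker cells. Edar, the ectodysplasin receptor, and its adaptor Edaradd were higher in bladder and thymus, whereas Edar was lower in vagina (mean 1.79 to 0.486 CPM). Among 10 BMP and TGF-beta pathway genes, to whose wider family Acvr1b belongs, 3 were higher and 2 lower in bladder, 1 and 4 in trachea, 2 and 3 in vagina, 4 and 0 in thymus and 1 and 3 in whisker cells. Of 42 Wnt pathway genes 5 had an identifier, none of them a member, and limma called Dkk3, Apcdd1 and Ror2 lower in bladder and trachea and Dkk3 lower in thymus, with no other call between the rounds. Dkk3 is a Dickkopf family protein, Apcdd1 a membrane inhibitor of Wnt signals and Ror2 a receptor of Wnt ligands. Mean Dkk3 levels went from 4.96 to 1.74 CPM in bladder, 5.19 to 0.435 in trachea and 2.76 to 0.98 in thymus, and Apcdd1 and Ror2 were under 1 CPM in both tissues before and after.

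Markers of cell types also moved with the round. The 4 of 14 basal epithelial markers with an identifier (Cdh1, Epcam, Col17a1 and Dsp) summed to 4478 to 4842 CPM in 1st round and 7116 to 7479 in recovered bladder, 4789 to 5081 and 5685 to 6083 in trachea, 8006 to 8330 and 11577 to 11779 in vagina, and 4250 to 5203 and 6259 to 6545 in thymus, against 10994 to 11507 and 9943 to 10977 in whisker cells. These basal markers did not move alike. Mean Cdh1 fell from 2291 to 1620 CPM in bladder and from 1382 to 894 in trachea. Epcam fell from 510 to 321 in bladder and from 323 to 181 in trachea. Col17a1 and Dsp rose in both tissues, while Cdh1 rose in vagina and Epcam in thymus. The 5 of 17 fibroblast markers (Col1a1, Col3a1, Col5a1, Col6a3 and Dcn) went from 312 to 365 CPM to 61.8 to 69.2 in bladder and from 449 to 466 to 133 to 140 in trachea. They were at 106 to 121 before and 121 to 130 after in vagina, 81.8 to 113 and 130 to 138 in thymus, and 121 to 149 and 118 to 129 in whisker cells, and 0 of the 5 were at 0 reads in any group. The 3 of 12 immune markers summed to 9.64 to 65.5 CPM over all samples (Coro1a was at 0 reads in 1st round whisker cells), the 1 of 10 endothelial markers (Egfl7) to 1.74 to 9.26, and 0 of 9 melanocyte markers had an identifier. Their part in the gain was not tested, and in bulk RNA a change in the share of a cell type cannot be told apart from a change of RNA per cell. Of the tissue markers, the 3 of 11 for bladder summed to 729 to 882 CPM in bladder and 113 to 132 in whisker samples. In thymus they summed to 660 to 806 CPM in the 1st round and 972 to 987 after recovery, above every bladder sample. The 2 of 14 for trachea summed to 14.0 to 24.5 in trachea and 48.8 to 128 in bladder. The 6 of 10 for vagina summed to 779 to 854 CPM in 1st round and 81.2 to 82.3 in recovered vagina, and to 1085 to 1147 in recovered thymus. The 5 of 14 for thymus summed to 816 to 1369 CPM in thymus and 1818 to 1846 in recovered bladder. These lists are too short to check the labels of bladder, trachea, vagina and thymus.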

How the data were processed

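RNA was sequenced from 20 samples of EGFP-sorted rat cells. The authors trimmed the reads with Cutadapt 1.8, removed ribosomal and low-complexity reads, aligned the rest with STAR 2.5.2b to Rnor_6.0, counted them per Ensembl gene with HTSeq 0.6.1, and deposited raw counts without normalization. Reads with several alignments were left uncounted (11601894 to 19374286 per sample), which lowers genes with near-identical copies. Lines that name no gene held 41.6% to 46.4% of the totals and were left out of library sizes.

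CPM values used the total over genes. Symbols came from the study's supplementary lists as given here, one of which was cut short. In them 2311 identifiers had a symbol, so the family filter could act on these alone. Genomic positions on Rnor_6.0 are not given, since the tables at hand are of another assembly.

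Tests used limma 3.58.1 (voom) with TMM factors from edgeR 4.0.16 in R 4.3.3, on the 13302 genes that reached 1 CPM in any sample, with 10 residual degrees of freedom, as in the study's methods but with the fold threshold of 2 that it uses for overlaps. Both the rule and the fit were tested on simulated data. All 10 members with a symbol are named, by a rule that takes the largest rises, the highest levels, the largest shortfalls and list genes. The identifiers without a symbol were chosen after their values were seen. The members and the lists were chosen with earlier results of these data known. Alternatives were edgeR's quasi-likelihood test, DESeq2 1.42.0, its size factors, other filters, thresholds, pseudocounts and references, a replicate block, fits of only the 4 samples compared, and leaving out each sample. With 2 samples per group, an outlying sample cannot be tested for. The numbers 1 and 2 do not pair samples: over 45 pairs of groups the deviations of same-numbered samples correlated at -0.123 to 0.24 (median 0.019).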

Additional observations from a re-analysis of the deposited data

Results flagged for a closer look

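Between recovered tissues that both met the rule for a gene, 8 differences in 4 named genes passed the limma test, and 6 more in genes without a symbol did. Members lagging in neither tissue were higher and lower for 2 and 3 of 20 in bladder against vagina (13.3% and 6.47% of all genes). In vagina against thymus they were 3 and 1 of 18 (7.5% and 11.7%), and in trachea against vagina 0 and 3 of 10 (7.37% and 6.29%). In bladder they were 1 and 0 of 16 against thymus (9.65% and 6.8%) and 1 and 0 of 8 against trachea (12.3% and 6%). The counts were not tested against these shares. The rule used the recovered values of both tissues to choose the members, so these are not independent tests. It held each tissue less than 1 unit below 1st round whisker cells and set no direction between them. Abca12 was lower in bladder than in vagina (log2 fold change -2.26, SE 0.16, limma adjusted p 6.55e-09), lower in trachea than in vagina (-1.48, SE 0.15, limma adjusted p 5.89e-07) and higher in vagina than in thymus (2.22, SE 0.15, limma adjusted p 5.18e-09). Casp1 ran the other way, higher in bladder than in vagina (1.26, SE 0.13, limma adjusted p 3.84e-07) and lower in vagina than in thymus (-1.37, SE 0.12, limma adjusted p 9.67e-08). Enox1 was higher in bladder than in vagina (1.03, SE 0.18, limma adjusted p 0.000156) and than in thymus (1.81, SE 0.21, limma adjusted p 2.95e-06). Efna3 was higher in vagina than in thymus (1.22, SE 0.12, limma adjusted p 5.01e-07). In each case both samples of the higher tissue were above both of the lower one. The comparisons share samples of the recovered tissues, and tissue and culture cannot be told apart. Vagina and trachea donors were both PN200 and bladder donors PN201, whereas thymus donors were PN137. Between tissues whose donors differed in age, age cannot be told apart from tissue.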

How the results depend on the processing

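Membership depended on the scale and the thresholds more than the tests did. In place of 22 members there were 36 with TMM-scaled CPM, which held all 22 (lagging in bladder 6, vagina 1, thymus 8), and 32 with a pseudocount of 0.5 (bladder 5, trachea 19, vagina 1), of which 20 were shared. A pseudocount of 2 gave 19, of which 13 were shared (bladder 1, vagina 1), and at least 10 CPM in whisker cells gave 16 (bladder 1, thymus 2). A 1st round gap of 1.5 left 5 members (bladder 0, trachea 3, thymus 1, none 1), and a recovered gap under 0.5 left 0 for every tissue. With recovered whisker cells as the reference for the recovered tissues there were 106 members, 19 of them shared (bladder 10, trachea 32, vagina 6, thymus 8, none 50). Trachea lagged most often among the 4 tissues in each of these settings that left any member.

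A log2 fold change of 2 as the threshold reduced members called lower to 1 in whisker cells, and against recovered whisker cells to 1 in bladder, 3 in trachea and 1 in thymus, with 1 higher in thymus. Between recovered tissues it left 3 higher in bladder than trachea, 0 higher and 1 lower in bladder than vagina, 0 higher in bladder than thymus, 3 lower in trachea than vagina, 4 lower in trachea than thymus, and 3 higher and 0 lower in vagina than thymus. Without a low-count filter 1 member was lower in bladder than trachea. The replicate block gave 3 members lower in whisker cells, 9 lower in trachea and 10 lower in trachea than vagina, and it changed no count of calls by over 1.5 times, nor did edgeR, DESeq2, its size factors, the stricter filter or the 4-sample fits.

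Leaving out samples gave 21 to 30 members, with lags of 2 to 3 in bladder, 11 to 18 in trachea, 0 to 3 in vagina, 3 to 6 in thymus and 1 to 6 in none. There were 30 members without replicate 1 of every group, 28 without the 1st sample of 1st round vagina, 27 without the 1st and 25 without the 2nd sample of 1st round whisker cells, of which 16 were shared in each of the last 2 cases, and trachea lagged for 18 without the latter. Members called lower ranged from 2 to 3 in whisker cells, and against recovered whisker cells from 1 to 4 in bladder, 10 to 11 in trachea, 0 to 0 in vagina and 5 to 6 in thymus, with 2 to 3, 0 to 0, 3 to 3 and 2 to 2 higher. Between recovered tissues the ranges of higher and lower were 7 to 8 and 0 to 1 (bladder and trachea), 1 to 2 and 4 to 4 (bladder and vagina), 3 to 4 and 0 to 0 (bladder and thymus), 0 to 0 and 9 to 11 (trachea and vagina), 0 to 1 and 7 to 8 (trachea and thymus) and 7 to 8 and 1 to 1 (vagina and thymus).

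Of 600 alternative values for the 50 log2 fold changes of named members, 584 kept side and direction, 10 lost the call and 1 gained it, and 5 changed sign near 0. The cause of these changes was not tested. With 2 samples a group, of unstated origin, depth limits values that rest on few reads, such as those of Casp1 in trachea and 1st round thymus and of Enox1 in trachea.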
